A study of Mus musculus with 6 samples.

Results

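The genes described here are 10 cytokine and receptor genes of the tumor stroma, taken by name out of 53801 genes counted, with earlier results of these data known. They comprise 3 ligands of the interleukin-6 (IL-6) family (Il6, Lif and Il11), 3 signal-transducing receptor chains of the same family (Il6st, Osmr and Lifr), and 4 further cytokines (Il33, Il1b, Csf1 and Tslp). RNA was sequenced from PDPN+PDGFRα+ stromal cells sorted from MO5 melanomas, which grow from B16-OVA mouse melanoma cells placed under the skin, and the question was how the remaining stroma differs once ADAM12+ cells are removed. The DTR group had 3 libraries from ADAM12-DTR mice, which carry the diphtheria toxin receptor on a bacterial artificial chromosome under control of Adam12 sequences. The Ctrl group had 3 libraries from littermates without the transgene. All 6 libraries came from mice given diphtheria toxin, so the groups differed in the transgene and not in the toxin, and the mice were 8 to 12 weeks old at implantation, sex-matched and on a C57Bl/6 background. Cells positive for CD45 or CD31 were gated out in the sort. The sources used here do not say whether a library came from 1 mouse or from a pool, so p-values measure the spread between these libraries.

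Cytokines of the IL-6 family share the receptor chain gp130, encoded by Il6st, and signal through JAK kinases to the transcription factor STAT3. IL-6 binds its own receptor before it engages gp130, LIF pairs gp130 with the LIF receptor, and oncostatin M pairs it with the oncostatin M receptor. Fibroblasts are a known source of IL-6, LIF, IL-11, IL-33 and CSF1 in inflamed tissue and in tumors, and IL-1 is a known inducer of the first of these in fibroblasts.

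The libraries held between 22339635 and 34271929 counted reads, so that 3 counts corresponded to between 0.0873 and 0.132 CPM (a gene's share of its library's counts on a per-million scale, with TMM scaling factors), a floor that covers counting error only. Adam12 was counted at 175 to 216 CPM in Ctrl and 112 to 165 CPM in DTR. It was lower in every DTR library, as were 8.18% of the genes tested. Its log2 fold change was -0.42 (adjusted p = 0.602, edgeR with Benjamini-Hochberg adjustment). The 9 fibroblast markers, among them Pdgfra, Pdpn and Col1a1, were all detected, and their summed level was 13622, 5233 and 5166 CPM in Ctrl replicates 1, 2 and 3 and 10852, 5574 and 14115 CPM in DTR replicates 1, 2 and 3. Ctrl replicate 1 and DTR replicates 1 and 3 had the most fibroblast marker RNA, and the highest sum was 2.73-fold above the lowest. The 3 collagen genes Col1a1, Col1a2 and Col3a1 made up between 92.5% and 96.1% of the sum, and the other 6 markers summed to 534, 224 and 364 CPM in Ctrl and 512, 301 and 1059 CPM in DTR replicates 1, 2 and 3. The 11 melanoma markers, which include Dct and Tyrp1, summed to between 18065 and 22111 CPM over the 6 libraries, so RNA of pigmented cells was present in every library. In such bulk libraries, fewer cells of a type and less RNA per cell cannot be told apart.

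No difference between DTR and Ctrl passed the test for any of the 10 genes. The quasi-likelihood test of edgeR, adjusted after Benjamini and Hochberg, gave 0 of the 9 genes with enough counts an adjusted p under 0.05, against 0 of 15133 genes tested, or 0.0%. Before adjustment, 0 of the 9 had a p under 0.05, against 7.92% of all genes tested, and DESeq2's Wald test called 0 of them, against 0.151% of all genes. Before adjustment DESeq2 gave 1 gene, Lif, a p under 0.05, against 4.89% of all genes, and further fits that put a gene under 0.05 before adjustment are given with the alternatives. The libraries of both groups overlapped for all 10 genes, while 14.5% of the genes tested had groups that did not overlap. The fold changes of 7 genes were above 0 and those of 2, Lif and Il1b, were below it, with a median log2 fold change of 0.39 beside -0.0029 for all genes tested. Without DTR replicate 3 the median was 0.0052, with 5 genes above 0 and 4 below it, and with any other library left out it lay between 0.26 and 0.57. DTR replicate 3 held the highest value for 7 of the 10 genes, and was the highest library for 20.9% of the genes tested.

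**Figure D1:**
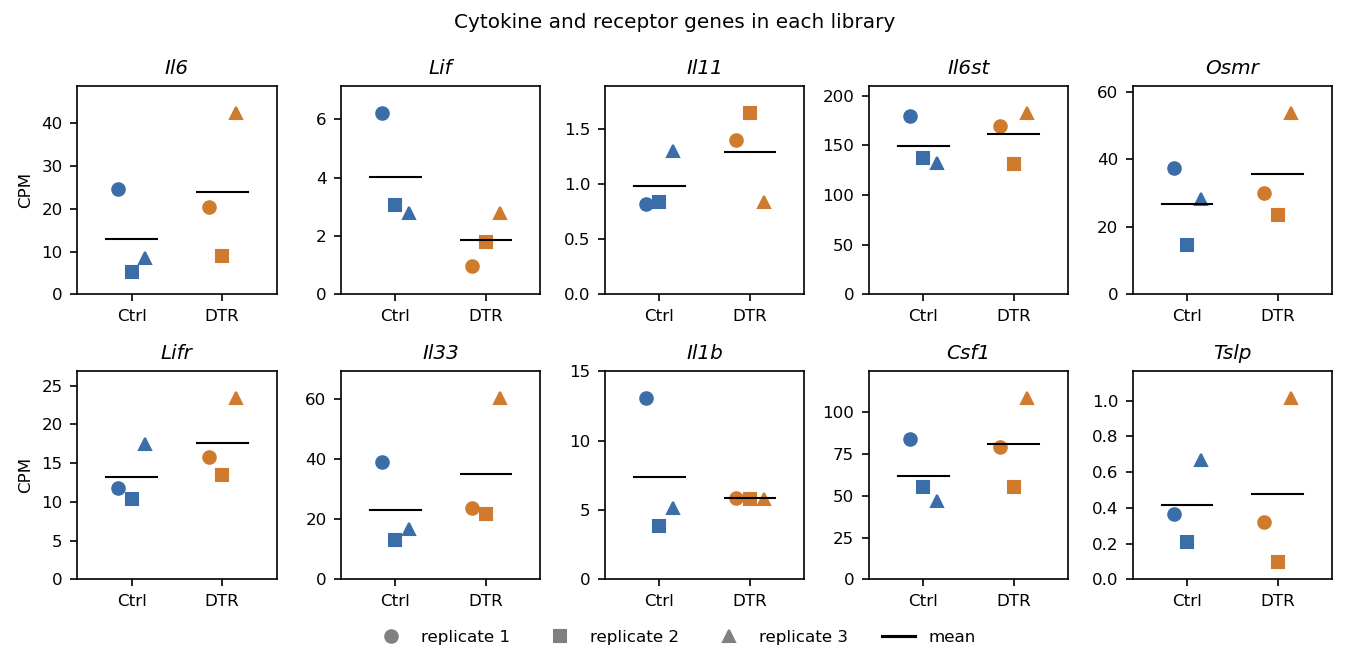
Level of each of the 10 genes in CPM (vertical axes, each from 0) in the 3 Ctrl and the 3 DTR libraries, with symbols for the replicate and a line for the group mean. The groups overlap in every panel, and DTR replicate 3 is the highest library in 7 of the 10.

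The 250 bases before the start of transcription are given for Il6 and Lif, which had the highest and the lowest fold change of the 10 genes. They are also given for Csf1 and Il33, which shared their 3 highest libraries with Il6. The sequences are from RefSeq on GRCm38.p6, with coordinates on that build, are written 5′ to 3′ along the gene's strand, and carry in capitals each match on either strand to an NF-kB word or to an AP-1 word (TGANTCA).
Il6 (chr5:30012864-30013113, + strand): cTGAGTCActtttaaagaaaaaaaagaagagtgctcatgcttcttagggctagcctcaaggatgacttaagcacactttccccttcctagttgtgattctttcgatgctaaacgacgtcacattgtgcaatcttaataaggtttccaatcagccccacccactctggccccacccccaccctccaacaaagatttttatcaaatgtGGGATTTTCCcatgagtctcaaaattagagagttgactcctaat
Lif (chr11:4257318-4257567, + strand): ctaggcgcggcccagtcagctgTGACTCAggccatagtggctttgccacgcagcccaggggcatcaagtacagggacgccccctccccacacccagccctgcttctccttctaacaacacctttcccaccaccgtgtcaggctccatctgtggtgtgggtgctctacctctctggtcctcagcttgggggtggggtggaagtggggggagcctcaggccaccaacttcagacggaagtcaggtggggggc
Csf1 (chr3:107760470-107760719, - strand): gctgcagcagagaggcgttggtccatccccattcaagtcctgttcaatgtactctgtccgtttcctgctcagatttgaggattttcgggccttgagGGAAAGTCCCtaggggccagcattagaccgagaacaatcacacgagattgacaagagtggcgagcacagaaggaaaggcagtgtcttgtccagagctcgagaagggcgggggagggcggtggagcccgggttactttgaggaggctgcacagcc
Il33 (chr19:29924863-29925112, + strand): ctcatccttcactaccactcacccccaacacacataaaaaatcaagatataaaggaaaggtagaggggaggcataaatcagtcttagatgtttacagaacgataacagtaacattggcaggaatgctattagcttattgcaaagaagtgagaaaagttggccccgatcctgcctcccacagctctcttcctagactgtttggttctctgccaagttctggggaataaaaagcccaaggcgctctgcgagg

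The NF-kB word stood 44 bases before the start of Il6, as GGGATTTTCC, and 154 bases before that of Csf1, where it read GGAAAGTCCC along the gene's strand, and it was present in 1.41% of 32851 mouse promoters cut to the same 250 bases. The AP-1 word stood 249 bases before Il6, as TGAGTCA, and 228 bases before Lif, as TGACTCA, and 6.75% of promoters held it. Il11 held the AP-1 word TGAGTCA 98 bases before 1 of its start sites. A STAT word (TTCNNNGAA), found in 7.02% of promoters, a cAMP response word (TGACGTCA), found in 1.55%, and a hypoxia response word (ACGTG), found in 16.6%, were in none of the 12 windows available for 9 of the 10 genes. Il6st and Osmr also shared their 3 highest libraries with Il6, and their windows, like the second window of Il33, held neither the NF-kB nor the AP-1 word. A match describes the letters of the window and not a bound site.

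Among the IL-6 family ligands, Il6 had the highest fold change of the 10 genes and Lif the lowest, and neither passed the test. Il6, on chromosome 5 of GRCm38 from 30013114 to 30019981, encodes IL-6, a cytokine of the acute phase response and of T cell and myeloid cell regulation. It was counted at 24.7, 5.32 and 8.54 CPM in Ctrl replicates 1, 2 and 3 and at 20.3, 8.99 and 42.3 CPM in DTR replicates 1, 2 and 3. Ctrl replicate 1 was above 2 of the 3 DTR libraries, and the highest library was 7.95-fold above the lowest, so that the spread within each group covered the distance between their means. The means were 12.9 ± 10.4 CPM in Ctrl and 23.9 ± 16.9 CPM in DTR (SD, n = 3 each; p = 0.4, two-sided exact permutation test). The log2 fold change was 0.89 (95% interval -0.63 to 2.41, adjusted p = 0.731, edgeR with Benjamini-Hochberg adjustment). It was 1.77 without Ctrl replicate 1 and 0.19 without DTR replicate 3, and the adjusted p stayed at 0.541 or above in each of the 17 alternatives.

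Lif, on chromosome 11 from 4257557 to 4272514, encodes leukemia inhibitory factor, which keeps mouse embryonic stem cells undifferentiated and has been studied as a signal of cancer-associated fibroblasts. Its level was 6.21, 3.06 and 2.78 CPM in Ctrl replicates 1, 2 and 3 and 0.960, 1.80 and 2.78 CPM in DTR replicates 1, 2 and 3. The Ctrl libraries were at or above the DTR libraries but for a tie at the edge, where DTR replicate 3 equalled Ctrl replicate 3 to 3 digits. The means were 4.01 ± 1.90 CPM in Ctrl and 1.85 ± 0.910 CPM in DTR (SD, n = 3 each; p = 0.2, two-sided exact permutation test). The log2 fold change was -1.13 (SE 0.489, unadjusted p = 0.0501, adjusted p = 0.629, edgeR with Benjamini-Hochberg adjustment). It remained below 0 with each library left out in turn, between -1.54 and -0.67, and the weakest value was that without Ctrl replicate 1. These levels rested on 33 to 152 counts per library.

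Il11, on chromosome 7 from 4772373 to 4782859, encodes IL-11, which fibroblasts make in response to TGF-β. Its level was 0.817, 0.838 and 1.30 CPM in Ctrl replicates 1, 2 and 3 and 1.40, 1.64 and 0.838 CPM in DTR replicates 1, 2 and 3, from 19 to 51 counts per library. DTR replicate 3, the highest library for 7 of the 10 genes, was among the lowest for Il11. Its log2 fold change was 0.39 (SE 0.453, adjusted p = 0.831, edgeR with Benjamini-Hochberg adjustment), or 0.65 without Ctrl replicate 3 and 0.18 without DTR replicate 2.

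The 3 receptor chains varied less between libraries than Il6 did. Il6st, on chromosome 13 from 112464070 to 112510086, encodes gp130, and its level in CPM was the highest of the 10 genes in each library. It was counted at 179, 138 and 133 CPM in Ctrl replicates 1, 2 and 3 and at 169, 132 and 183 CPM in DTR replicates 1, 2 and 3. The means of 150 ± 25.7 CPM in Ctrl and 161 ± 26.4 CPM in DTR (SD, n = 3 each) differed by less than either SD. Il6st had a log2 fold change of 0.10 with a 95% interval from -0.26 to 0.47, the narrowest of the 9 genes tested (adjusted p = 0.871, edgeR with Benjamini-Hochberg adjustment). With 1 library left out it lay between 0.0052, without DTR replicate 3, and 0.25, without Ctrl replicate 1.

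Osmr, on chromosome 15 from 6813577 to 6874969, encodes the oncostatin M receptor chain. Osmr stood at 37.3, 14.7 and 28.4 CPM in Ctrl replicates 1, 2 and 3 and at 30.0, 23.6 and 53.7 CPM in DTR replicates 1, 2 and 3. Ctrl replicate 1 lay above 2 of the DTR libraries, and the log2 fold change of 0.41 (SE 0.382, adjusted p = 0.784, edgeR with Benjamini-Hochberg adjustment) went to -0.00094 without DTR replicate 3. Lifr lies on the same chromosome from 7090614 to 7197489 and encodes the LIF receptor chain. Lifr stood at 11.8, 10.3 and 17.4 CPM in Ctrl replicates 1, 2 and 3 and at 15.9, 13.4 and 23.4 CPM in DTR replicates 1, 2 and 3. Ctrl replicate 3 exceeded 2 of the 3 DTR libraries, and the log2 fold change was 0.41 (95% interval -0.20 to 1.01, adjusted p = 0.696, edgeR with Benjamini-Hochberg adjustment). It was 0.66 without Ctrl replicate 3 and 0.15 without DTR replicate 3.

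Il33, on chromosome 19 from 29925114 to 29960718, encodes IL-33, an alarmin of the IL-1 family that barrier and stromal cells keep in the nucleus. Il33 stood at 39.1, 13.2 and 16.9 CPM in Ctrl replicates 1, 2 and 3 and at 23.6, 21.7 and 60.2 CPM in DTR replicates 1, 2 and 3. The order of the libraries was the same as that of Il6, with Ctrl replicate 1 above 2 of the DTR libraries. The log2 fold change was 0.61 (95% interval -0.55 to 1.76, adjusted p = 0.754, edgeR with Benjamini-Hochberg adjustment), and it was -0.025 without DTR replicate 3 and 1.22 without Ctrl replicate 1.

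Il1b, on chromosome 2 from 129364570 to 129371139, encodes IL-1β, which is mostly made by myeloid cells. It was counted at 13.1, 3.85 and 5.13 CPM in Ctrl replicates 1, 2 and 3 and at 5.90, 5.83 and 5.82 CPM in DTR replicates 1, 2 and 3. The DTR libraries were nearly equal and lay within the range of the Ctrl libraries, of which replicate 1 stood apart. For Il1b the log2 fold change was -0.33 (SE 0.426, adjusted p = 0.850, edgeR with Benjamini-Hochberg adjustment) and became 0.38 without Ctrl replicate 1. The summed level of 10 neutrophil markers was also highest in Ctrl replicate 1, at 7.88 CPM, beside 1.34 to 4.23 CPM in the other 5 libraries. In Ctrl replicate 1, Csf3r stood at 2.94, S100a9 at 2.41 and Cxcr2 at 1.55 CPM. Ltf was highest in Ctrl replicate 2, at 2.22 CPM, and Ly6g and Camp had 0 counts in all libraries. The 14 macrophage markers summed to 138, 222 and 153 CPM in Ctrl replicates 1, 2 and 3 and to between 157 and 166 CPM in DTR. Itgam, which has more than 1 entry among the genes counted, added nothing, because the entry used had 0 counts in all libraries. Ctrl replicate 1 had the lowest sum, and of the 13 markers with counts 6 were lowest there, among them Ptprc at 16.3 CPM, while Mrc1 at 26.3 CPM and Cd68 at 11.9 CPM were highest there. The part of these cells in the Il1b values was not tested.

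Csf1, on chromosome 3 from 107741048 to 107760469, encodes the growth factor that macrophages need for survival. Csf1 stood at 83.8, 55.4 and 46.7 CPM in Ctrl replicates 1, 2 and 3 and at 79.1, 55.0 and 108 CPM in DTR replicates 1, 2 and 3. The second DTR library was at the level of the second Ctrl library, and Ctrl replicate 1 lay above 2 of the DTR libraries. The means were 62.0 ± 19.4 CPM in Ctrl and 80.8 ± 26.6 CPM in DTR (SD, n = 3 each; p = 0.5, two-sided exact permutation test). Csf1 had a log2 fold change of 0.38 (95% interval -0.26 to 1.03, adjusted p = 0.730, edgeR with Benjamini-Hochberg adjustment), or 0.66 without Ctrl replicate 1 and 0.11 without DTR replicate 3.

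Tslp, on chromosome 18 from 32815383 to 32819797, encodes an epithelial cytokine that acts on dendritic cells. It had 9, 5 and 19 counts in Ctrl replicates 1, 2 and 3 and 11, 3 and 23 counts in DTR replicates 1, 2 and 3, and was too low for the expression filter. In the 6 alternative fits that held it, its log2 fold change lay between -0.16 and 0.65, with an unadjusted p of 0.462 or above (edgeR or DESeq2). The 7 keratinocyte markers summed to at most 4.33 CPM in a library, with Krt1 at 0 counts and Krt14 at no more than 3.

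**Figure D2:**
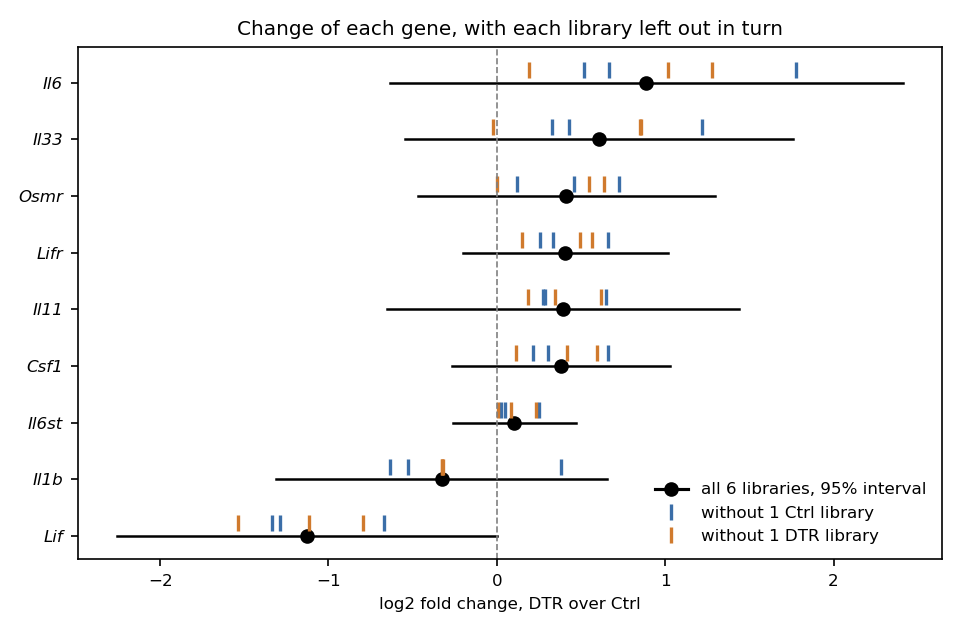
Log2 fold change of DTR over Ctrl (horizontal axis) for the 9 genes tested, with its 95% interval, and ticks for the value with 1 library left out. Ticks for Il33, Osmr and Il1b fall on both sides of 0, and those for Il6 run from 0.19 to 1.77.

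For 5 of the 10 genes, the 3 highest libraries were those with the most fibroblast marker RNA, from both groups, and 7.35% of the 15133 genes tested had the same 3. Il6, Csf1, Il6st, Osmr and Il33 were each highest in Ctrl replicate 1 and DTR replicates 1 and 3. Lif, Il11, Lifr, Il1b and Tslp had other orders, and Lif was lowest in DTR replicate 1, a library with high fibroblast markers.

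**Figure D3:**
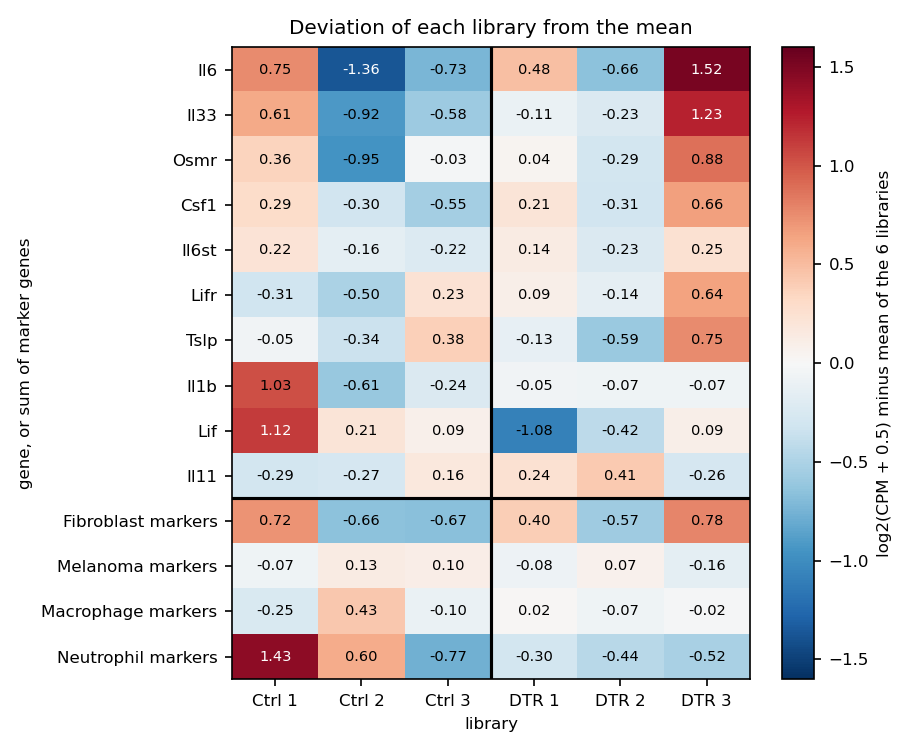
Deviation of each library from the mean of the 6 libraries on the log2(CPM + 0.5) scale (color and printed value), for the 10 genes and for the summed markers of 4 cell types. Il6 and the fibroblast markers are above their mean in Ctrl 1, DTR 1 and DTR 3, and Lif is at -1.08 in DTR 1.

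Counts were also expressed per 10000 counts of the 9 fibroblast markers. On this scale Il6 was at 18.1, 10.2 and 16.5 in Ctrl replicates 1, 2 and 3 and at 18.7, 16.1 and 30.0 in DTR replicates 1, 2 and 3, and the highest library was 2.95-fold above the lowest in place of 7.95-fold. This spread between libraries was narrower than in CPM for 6 of the 10 genes and wider for the other 4, from 1.39-fold to 2.03-fold for Il6st, 2.26-fold to 3.88-fold for Lifr, 2.01-fold to 4.96-fold for Il11 and 6.47-fold to 6.60-fold for Lif. Csf1 was at 61.5, 106 and 90.4 in Ctrl and 72.9, 98.8 and 76.6 in DTR, and Il33 at 28.7, 25.2 and 32.7 in Ctrl and 21.8, 38.9 and 42.7 in DTR. The groups still overlapped for all 3 genes.

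Lif per 10000 fibroblast marker counts was 4.56, 5.84 and 5.38 in Ctrl replicates 1, 2 and 3 and 0.884, 3.24 and 1.97 in DTR replicates 1, 2 and 3. Every DTR library was below every Ctrl library, which held for Lif alone among the 10 genes and for 0.932% of all genes tested on this scale. The means were 5.26 ± 0.650 in Ctrl and 2.03 ± 1.18 in DTR (SD, n = 3 each; p = 0.1 in a two-sided exact permutation test, the lowest it can reach with 3 libraries a group). In edgeR with this scaling the log2 fold change was -1.38 (SE 0.783, adjusted p = 0.925 with Benjamini-Hochberg adjustment), and the median over all genes moved to -0.42. Relative to that median the change was -0.96, beside -1.13 relative to the median with TMM factors. Per 10000 counts of the 6 fibroblast markers other than collagens, a denominator chosen after seeing the data, Lif was also below Ctrl in every DTR library, with 116, 136 and 76.4 in Ctrl and 18.7, 60.0 and 26.2 in DTR. The part of fibroblast marker RNA in these results was not tested.

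The genes most like Il6 over the 6 libraries, by Pearson's r of log2(CPM + 0.5) and among all genes tested, were Ehd2 (r = 0.995), Il1rl2 (r = 0.995) and Gpc4 (r = 0.994). The genes most like Csf1 were Dchs1 (r = 0.997), Fstl1 (r = 0.995) and Adamts15 (r = 0.995). Each r is the highest of many over 6 libraries that also differ in their fibroblast marker RNA, and is given as a description.

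Levels of different genes were compared per kb of merged exon, in CPM per kb as the mean of the 6 libraries. Il6st was at 14.0, Csf1 at 13.5, Il33 at 10.1 and Il6 at 7.56 CPM per kb. Il1b at 3.46, Osmr at 2.58 and Lifr at 1.43 CPM per kb came next, and Lif at 0.674, Il11 at 0.547 and Tslp at 0.335 CPM per kb were lowest. The first of these means was 41.8-fold above the last, yet all 9 pairs of neighbors in this order had ranges that overlapped over the libraries. With the length of the longest transcript, Osmr was at 5.70 CPM per kb and ranked 5 of 10.

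**Figure D4:**
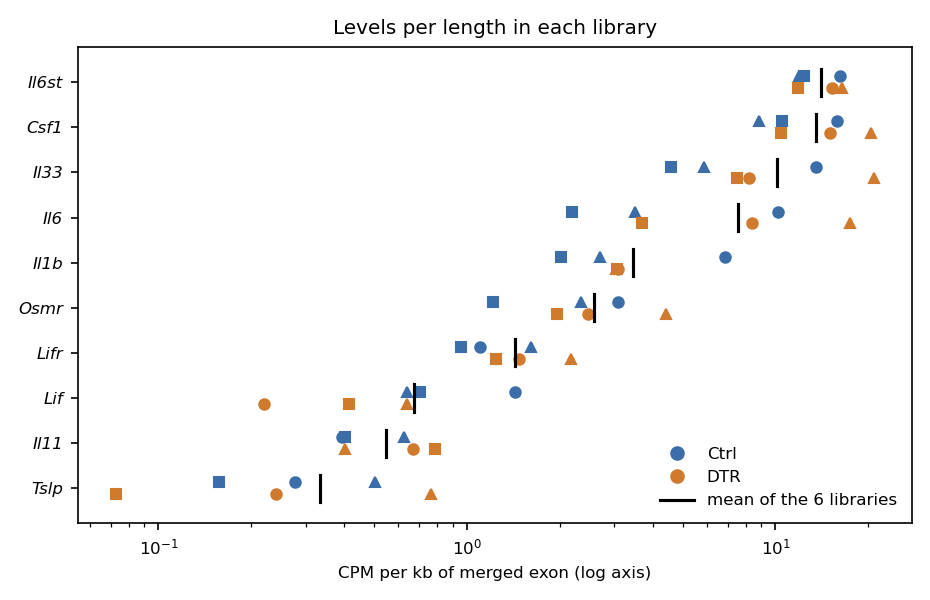
Level of each gene in CPM per kb of merged exon (horizontal log axis) in the 6 libraries, colored by group, with a line for the mean of the 6. Il6st, at a mean of 14.0, and Csf1, at 13.5, are highest, and the ranges of neighboring genes overlap.

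The other genes of these pathways were read from 8 lists, which hold 92 genes with the 10 described above. Of the 82 genes with enough counts, 0 passed edgeR's test with Benjamini-Hochberg adjustment. Before adjustment 4 of them, or 4.88%, had a p under 0.05, beside 7.92% of all genes tested, and the median log2 fold change was 0.15. With DESeq2, which called 0.151% of all genes, 2 of them were called, the STAT3 target genes Lcn2 and Saa3. The study names both for these samples, and the lists were chosen with earlier results known. These 2 calls are therefore not independent evidence about the lists. Medians of lists moved with single libraries. Without DTR replicate 3 they were -0.046 for the JAK-STAT relay and its brakes, -0.061 for the IL-1 family and -0.25 for genes that IL-1 and NF-kB induce, all of which had medians above 0 with 6 libraries.

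Of 11 ligands of the IL-6 family, 7 were tested, 4 with a fold change above 0 and 3 below it, and the median was 0.0050, or 0.27 without Ctrl replicate 1 and -0.29 without Ctrl replicate 2. Il6 was the highest and Ctf1, which encodes cardiotrophin-1 and signals through gp130 and the LIF receptor, was the lowest. Ctf1 was counted at 0.898, 0.461 and 0.703 CPM in Ctrl replicates 1, 2 and 3 and at 0.262, 0.258 and 0.353 CPM in DTR replicates 1, 2 and 3. It was below Ctrl in every DTR library, as were 8.18% of the genes tested, with a log2 fold change of -1.24 (SE 0.534, adjusted p = 0.629, edgeR with Benjamini-Hochberg adjustment). Clcf1, which encodes another gp130 cytokine, had only 8, 12 and 14 counts in Ctrl and 27, 23 and 18 in DTR replicates 1, 2 and 3. In CPM it was above Ctrl in every DTR library, as were 6.32% of the genes tested. Its log2 fold change was 0.80 (adjusted p = 0.671, edgeR with Benjamini-Hochberg adjustment), and it was singled out after its values were seen. Cntf had no counts, and Ctf2 had no more than 3 in a library.

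All 8 receptor genes of the family were tested, 5 with a fold change above 0 and 3 below it, with a median of 0.14. This median was 0.0021 without DTR replicate 3, 0.0095 without DTR replicate 1, 0.082 without Ctrl replicate 2 and -0.032 without Ctrl replicate 3, and 0.29 and 0.35 without Ctrl replicate 1 and DTR replicate 2. Il6ra, which encodes the IL-6 receptor chain itself, was the highest at 0.68, with 7.68, 6.62 and 5.94 CPM in Ctrl and 9.45, 5.51 and 17.6 CPM in DTR replicates 1, 2 and 3. Il31ra, whose product pairs with the oncostatin M receptor chain to bind IL-31, was the lowest at -0.49 (adjusted p = 0.709, edgeR with Benjamini-Hochberg adjustment).

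Among 13 genes of the JAK-STAT relay and its brakes, 8 had a fold change above 0, with a median of 0.18. Stat5a, a STAT transcription factor, was at 33.7, 32.5 and 31.0 CPM in Ctrl replicates 1, 2 and 3 and at 24.3, 24.5 and 29.1 CPM in DTR replicates 1, 2 and 3, without overlap. Of the list, 2 genes were lower and 1 was higher in every DTR library, beside 8.18% and 6.32% of all genes tested. The log2 fold change of Stat5a, -0.32, was the lowest of the list (adjusted p = 0.602, edgeR with Benjamini-Hochberg adjustment). Socs1, an inhibitor of JAK kinases, was the highest at 0.94 (adjusted p = 0.642, edgeR with Benjamini-Hochberg adjustment), with 12.1 CPM in DTR replicate 3 and 2.74 to 4.67 CPM in the other libraries.

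Of 18 genes that STAT3 is known to induce, 13 had a fold change above 0 and 5 below it, with a median of 0.27. The lowest were Lcn2, which encodes the iron-scavenging protein lipocalin 2, and Saa3, which encodes a serum amyloid A protein, both named in the study for these samples and therefore not independent evidence of the list's direction. Lcn2 was at 3.68, 3.31 and 2.95 CPM in Ctrl replicates 1, 2 and 3 and at 0.233, 0.161 and 0.794 CPM in DTR replicates 1, 2 and 3, and Saa3 was at 44.7, 12.0 and 20.7 CPM in Ctrl and 6.69, 4.70 and 7.41 CPM in DTR. Their log2 fold changes were -3.11 and -2.04, each with an adjusted p of 0.602 (edgeR with Benjamini-Hochberg adjustment). Cebpd, a transcription factor gene of the acute phase response, was the highest at 0.78, with 49.9 CPM in DTR replicate 3 and 12.2 to 20.8 CPM in the other libraries. Without DTR replicate 3 the median of the list went from 0.27 to -0.000067.

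In the IL-1 family with its receptors, 8 of 13 genes had a fold change above 0, with a median of 0.22, or 0.028 without Ctrl replicate 2. Il1rl1, which encodes the IL-33 receptor ST2, was the highest at 1.06 (adjusted p = 0.630, edgeR with Benjamini-Hochberg adjustment), with 13.8, 3.81 and 4.50 CPM in Ctrl replicates 1, 2 and 3 and 19.3, 12.2 and 14.6 CPM in DTR replicates 1, 2 and 3. Only Ctrl replicate 1 reached the level of the DTR libraries. Il1rn, which encodes the IL-1 receptor antagonist, was the lowest at -0.89. Of 18 tested genes that IL-1 and NF-kB induce, 12 had a fold change above 0, with a median of 0.056, from Cxcl5, a neutrophil chemokine gene, at -1.52 to Has2, which encodes a hyaluronan synthase, at 0.89. Cxcl5 stood at 24.3 CPM in Ctrl replicate 1 and at 0.397 to 6.69 CPM in the other libraries.

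The colony stimulating factors and their receptors had 6 genes tested, 4 above 0 and 2 below it, with a median of 0.27, or 0.047 without DTR replicate 3. Il34, whose product is the other ligand of the CSF1 receptor, was the highest at 1.02, with 4.81 CPM in DTR replicate 3 and 0.586 to 1.88 CPM in the other libraries. Csf3r, a receptor gene of neutrophils, was the lowest at -0.77. In the axis of TSLP and IL-7, 2 of 5 genes were tested, both below 0, which were Il7r at -0.40 and the TSLP receptor gene Crlf2 at -0.034. Their median was -0.22, and 0.041 without Ctrl replicate 1.

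**Figure D5:**
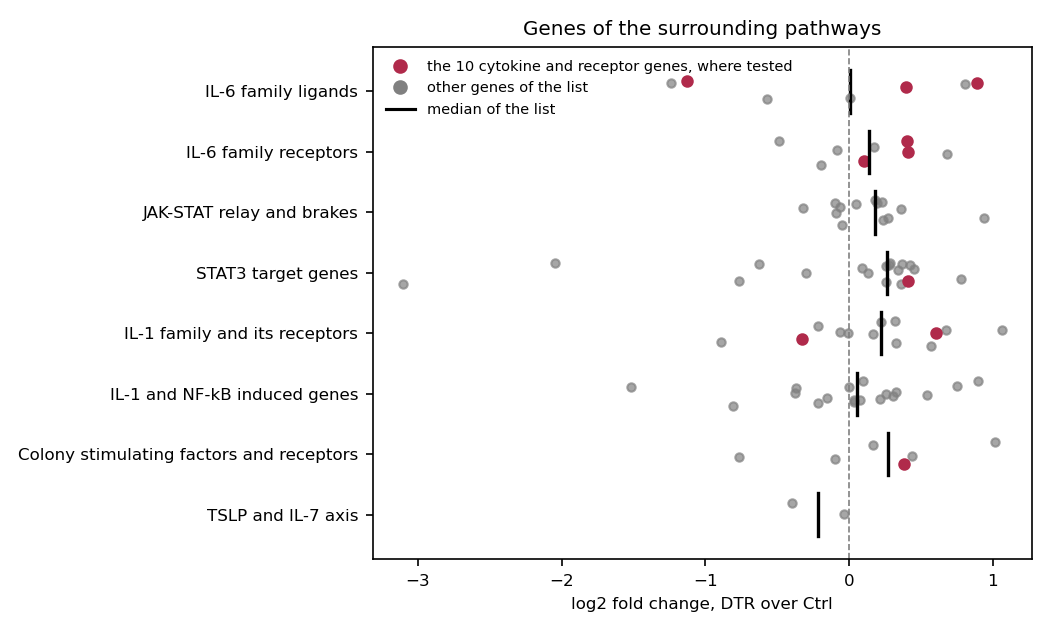
Log2 fold change of DTR over Ctrl (horizontal axis) for each tested gene of the 8 lists, with a line for the median of the list. The medians lie between -0.22 and 0.27, and Lcn2, at -3.11, is the gene farthest from 0.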

How the data were processed

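Reads were counted in 6 libraries, 3 Ctrl and 3 DTR, grouped by the sample labels. The authors made strand-specific libraries from total RNA, trimmed reads with cutadapt 3.4, aligned them to GRCm38 with STAR 2.7.3a and counted them per gene and strand with featureCounts 2.0.1, and the deposited counts are raw. The other deposited columns (size-factor-scaled counts, group means and the authors' fold changes, p-values, dispersions and Cook's distances) were not used. Exons of Il1b overlap an antisense gene, which counting by strand separates.

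Genes were kept by filterByExpr (minimum count 10, minimum total 15), scaled with TMM factors and compared with edgeR's quasi-likelihood test, two-sided, without covariates, with Benjamini-Hochberg adjustment over 15133 genes and a threshold of 0.05. The SE of a log2 fold change was that value divided by the square root of F. Exact permutation tests used log2(CPM + 0.5). The scripts were tested on simulated data.

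Positions and exon lengths came from GENCODE M21, which named 27927 of 27987 genes without a name in the table, and promoters came from RefSeq. The 10 genes, the 8 pathway lists and the marker lists were chosen with earlier results of these data known. The text names the 10 genes, the lowest and the highest gene of each list, genes that passed a test, the 3 genes most like Il6 and Csf1, and markers. Clcf1, Ctf2, Cntf, Cntfr and Gm3226 fall outside this rule and were chosen after their values were seen. Endothelial markers summed to 100 CPM in DTR replicate 3, of which Tek gave 62.9 while Cdh5 had no counts there, and to 27.0 to 47.3 CPM in the other libraries. T cell markers to 6.90 to 43.6 CPM and pericyte markers to 42.1 to 81.4 CPM over the libraries. Software was Python 3.11.15 with matplotlib 3.10.9, and R 4.3.3 with DESeq2 1.42.0, limma 3.58.1 and edgeR 4.0.16.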

Additional observations from a re-analysis of the deposited data

How the results depend on the processing

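Over 17 alternatives (other scalings, filters, moderation, DESeq2, limma voom, an offset for genomic span, the replicate block and each library left out in turn) 0 of the 10 genes passed the threshold, and the lowest adjusted p was 0.490, for Lif with the span offset (edgeR with Benjamini-Hochberg adjustment). Of 153 fold changes of single genes, 146 kept their direction and 7 reversed. Scaled to the fibroblast markers, where the median of all genes was -0.42, the log2 fold changes of Il6st, Osmr, Lifr and Csf1 were -0.32, -0.032, -0.17 and -0.054, and relative to that median 0.096, 0.38, 0.25 and 0.36. Without DTR replicate 3 they were -0.00094 for Osmr and -0.025 for Il33, and without Ctrl replicate 1 it was 0.38 for Il1b. Over the fits that lack 1 library the range was -0.00094 to 0.72 for Osmr, -0.025 to 1.22 for Il33 and -0.64 to 0.38 for Il1b. Counts of called genes over the whole table were 31 with DESeq2, 2 with the fibroblast scaling and 0 to 2 with 1 library left out, the 2 without Ctrl replicate 1, and 2 genes of the pathway lists were called with DESeq2. The cause of these differences was not tested. Before adjustment, Il6, Il33 and Csf1 had a p under 0.05 without Ctrl replicate 1, as did 1324 of 15853 genes tested (edgeR). Lif and Lifr had one without Ctrl replicate 3, as did 953 of 15657 genes. Lif also had one without DTR replicate 3, with both other filters, robust moderation, DESeq2, limma voom and the span offset, and Lifr with the replicate block. Over all genes, 958 of 15785 had one without DTR replicate 3, 1810 of 26774 with the wider filter and 1116 of 13179 with the stricter one. Of 15133 genes, 1185 had one with robust moderation, 1166 with limma voom, 1498 with the span offset and 1271 with the block. With DESeq2 the share was 4.89%. Tslp had 3 to 23 counts per library, the fewest of the 10 genes.

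The groups share replicate numbers, but the deviations of same-numbered libraries from their group means correlated at 0.15, 0.16 and -0.065, so the numbers were not taken to pair the libraries. With the replicate number as a block, 0 genes were called, and the log2 fold change was 0.91 for Il6 and -1.12 for Lif.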

Other observations

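Per kb of merged exon, Il31ra and Cntfr had the highest mean levels among the receptor genes of the IL-6 family. Il31ra was counted at 4200, 3641 and 1489 CPM in Ctrl replicates 1, 2 and 3 and at 2635, 2048 and 1969 CPM in DTR replicates 1, 2 and 3. The groups overlapped, and Ctrl replicate 3 was the lowest of the 6 libraries. By its mean CPM it ranked 17 among all genes in the table. Per kb of merged exon its mean was 470 CPM, beside 14.0 for Il6st and 2.58 for Osmr, whose product is its partner chain. Cntfr, which encodes the receptor of ciliary neurotrophic factor, followed at 47.1 CPM per kb, while Cntf itself had no counts. Cntfr had its lowest level, 96.2 CPM, in DTR replicate 3. The fibroblast markers were highest there, at 14115 CPM, and the melanoma markers lowest, at 18065 CPM. In Ctrl replicate 1 the fibroblast markers were nearly as high, at 13622 CPM, with the melanoma markers at 19203 CPM and Cntfr at 141 CPM. The part of either cell type was not tested. Il31ra lies on chromosome 13 from 112519898 to 112594360, and a predicted gene, Gm3226, overlaps its span on the same strand.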
